A study of Mus musculus with 18 samples.

Results

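Kruppel-like factors are transcription factors that carry a row of zinc fingers near the carboxyl end and bind GC-rich and CACCC sequences in DNA. The members described here are the 10 genes *Klf2*, *Klf3*, *Klf4*, *Klf6*, *Klf7*, *Klf9*, *Klf10*, *Klf11*, *Klf13* and *Klf16*, found by matching their symbols to the Ensembl identifiers of the count files, among 55029 genes in all and 54232 genes that files of both layouts list. The zinc fingers are much alike across the family, whereas the amino ends differ and bind different partners: *Klf2*, *Klf4*, *Klf6* and *Klf7* are known mainly as activators that recruit histone acetyltransferases, *Klf3* as a repressor that binds CtBP, and *Klf9*, *Klf10*, *Klf11*, *Klf13* and *Klf16* as factors that bind the corepressor Sin3A. In leukocytes the family is known for opposing roles in activation, with *Klf2* holding cells in a resting state, *Klf4* taking part in monocyte differentiation and macrophage polarization, and *Klf6* acting as an early response gene in inflammation.

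RNA of peritoneal eosinophils was measured by CEL-Seq2, a method that reads transcript ends, after stimuli of Type 1 and Type 2 inflammation. The cells came from C57BL/6 mice of the NJ.1638 line, which carry an *Il5* transgene that raises eosinophil numbers, and cells binding antibodies to Thy1.2 or B220 had been removed with magnetic beads. Cultures were kept for 18 h without stimulus or with IL-4, heat-inactivated *E. coli*, IFN-γ, or heat-inactivated *E. coli* added to IFN-γ (the combination), and the labels give neither the age nor the sex of the mice. Each of the 4 stimuli has 3 libraries, and 6 unstimulated libraries complete the 18. Unstimulated libraries a, b and c share their file layout with the *E. coli*, IFN-γ and combination libraries (12 libraries, the Type 1 set), and unstimulated libraries d, e and f share theirs with the IL-4 libraries (6 libraries, the IL-4 set). Total counts on genes were 1523808 to 2734041 per library in the Type 1 set, and those of the IL-4 set were 3625036 to 6482289, so that 3 counts, taken as the smallest level told from 0, equalled 1.10 to 1.97 and 0.463 to 0.828 CPM (counts scaled to a common library total). That floor covers counting error only, and replicates differed by more than counting error, at a chi-square for each gene of 1.59 to 5.46 within groups of the Type 1 set and, among IL-4 set groups, of 3.51 to 21.4. The labels do not say whether replicates are separate cultures or animals, and the paper calls them biological without saying which, so p-values measure the spread between libraries. Levels below are CPM after TMM normalization, each group has n = 3 libraries, and levels are not compared between the sets. Total counts, floors and chi-squares are not compared between the sets either, since the sets may count in different units. The floor and the chi-square take each count as a separate molecule, which is not stated for either set.

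Of 10 eosinophil markers 9 had more than 3 counts in some library of each set, and *Clc* matched no gene. The most abundant was *Ccr3*, the eotaxin receptor, in the Type 1 set, at 1215, 1692 and 1347 CPM in unstimulated libraries a, b and c. *Siglecf*, the inhibitory lectin that marks mouse eosinophils, stood at 942, 1158 and 934 CPM in the same libraries and at 673, 738 and 703 CPM in libraries d, e and f. The granule protein gene *Epx* was near the floor in libraries a, b and c, with 0.737, 1.89 and 1.64 CPM. In libraries d, e and f *Epx* was low at 1.38, 2.15 and 1.32 CPM, where 3 counts equalled 0.828, 0.463 and 0.567 CPM. The eosinophil markers summed to 3802, 5099.9 and 3954 CPM in libraries a, b and c, 3496, 3094 and 3508 CPM with *E. coli*, 4046, 3580.1 and 4422 CPM with IFN-γ, 3254, 2872 and 3108 CPM with the combination, 5150.0, 5981 and 5266 CPM in libraries d, e and f and 5006, 5207 and 5082 CPM with IL-4. By edgeR's test at an adjusted p under 0.05, of the 6 tested in the Type 1 set 1 rose and 2 fell with *E. coli*, 4 fell with IFN-γ, and 1 rose and 4 fell with the combination, among them *Siglecf* by 1.55, and of the 9 tested in the IL-4 set 4 rose and 1 fell. Between stimuli, 1 of the 6 was higher and 3 were lower with the combination than with IFN-γ, 3 were lower with the combination than with *E. coli*, 1 was higher and 2 were lower with IFN-γ than with *E. coli*, and none was called for the interaction. In the model of 18 libraries the IL-4 response of 8 tested eosinophil markers was higher for 5 and lower for 1 than the response to the combination, for 4 and 1 than that to IFN-γ, and for 3 and 1 than that to *E. coli*. Macrophage markers were present as well: all 12 had more than 3 counts in some library of each set, with *Adgre1*, which eosinophils also express, as the most abundant in the Type 1 set (mean 1043 CPM) and *Lyz2* in the IL-4 set (mean 1289 CPM). Their summed level was 2644, 2696 and 2682 CPM in libraries a, b and c, 2061, 1866 and 2737 CPM with *E. coli*, 3340.3, 3192 and 3583 CPM with IFN-γ, 2892, 2979 and 3640.4 CPM with the combination, 4110.5, 4638 and 5206 CPM in libraries d, e and f and 3260.3, 3212 and 3707 CPM with IL-4. Of these 12 markers 5 fell with *E. coli*, 4 rose and 2 fell with IFN-γ, 2 rose and 2 fell with the combination, and 5 fell with IL-4, while 5 were higher with IFN-γ than with *E. coli*, 4 were higher with the combination than with *E. coli* and 1 was higher for the interaction. Their IL-4 response was higher for 2 and lower for 4 than the response to the combination, for 3 and 4 than that to IFN-γ, and for 3 and 2 than that to *E. coli*. In bulk samples fewer cells of a type and less RNA per cell cannot be told apart, and *Klf2*, *Klf4* and *Klf6* are expressed by macrophages and lymphocytes too.

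All 10 members passed the filter on low counts in both sets. Per kilobase of exon, which a method reading transcript ends need not follow, *Klf6* had the highest level in unstimulated libraries a, b and c at 161 ± 19.5 CPM per kb (SD), followed by *Klf2* at 109 ± 7.11, *Klf7* at 88.8 ± 3.61, *Klf13* at 64.0 ± 1.85 and *Klf3* at 26.5 ± 3.37 CPM per kb, each apart from the next in every library. *Klf16*, *Klf11*, *Klf10* and *Klf9* followed at 8.09 ± 0.995, 7.73 ± 0.776, 7.37 ± 2.96 and 6.13 ± 0.193 CPM per kb, and neighbours among them overlapped. *Klf4* was lowest, at 1.35 ± 0.289 CPM per kb. In libraries d, e and f the order began with *Klf6* at 131 ± 30.1 and *Klf2* at 125 ± 22.9 CPM per kb, which overlapped, and *Klf13* at 56.6 ± 15.4 and *Klf7* at 54.8 ± 29.5 CPM per kb overlapped as well. Below them *Klf3*, *Klf16*, *Klf10*, *Klf9* and *Klf11* overlapped from neighbour to neighbour, from 17.1 ± 5.69 to 5.37 ± 1.82 CPM per kb, and *Klf4* was again lowest at 1.501 ± 1.13 CPM per kb. The order is that of CPM per kb, and CPM without regard to length order the members differently. By CPM, *Klf7* at 722 ± 29.4 and *Klf6* at 706 ± 85.8 were highest in libraries a, b and c, and overlapped. *Klf13* at 482 ± 13.9, *Klf3* at 298 ± 37.8 and *Klf2* at 201 ± 13.1 CPM followed. In libraries d, e and f the CPM were 577 ± 132 for *Klf6*, 446 ± 240 for *Klf7*, 426 ± 116 for *Klf13*, 231 ± 42.3 for *Klf2* and 192 ± 63.9 for *Klf3*.

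**Figure D1:**
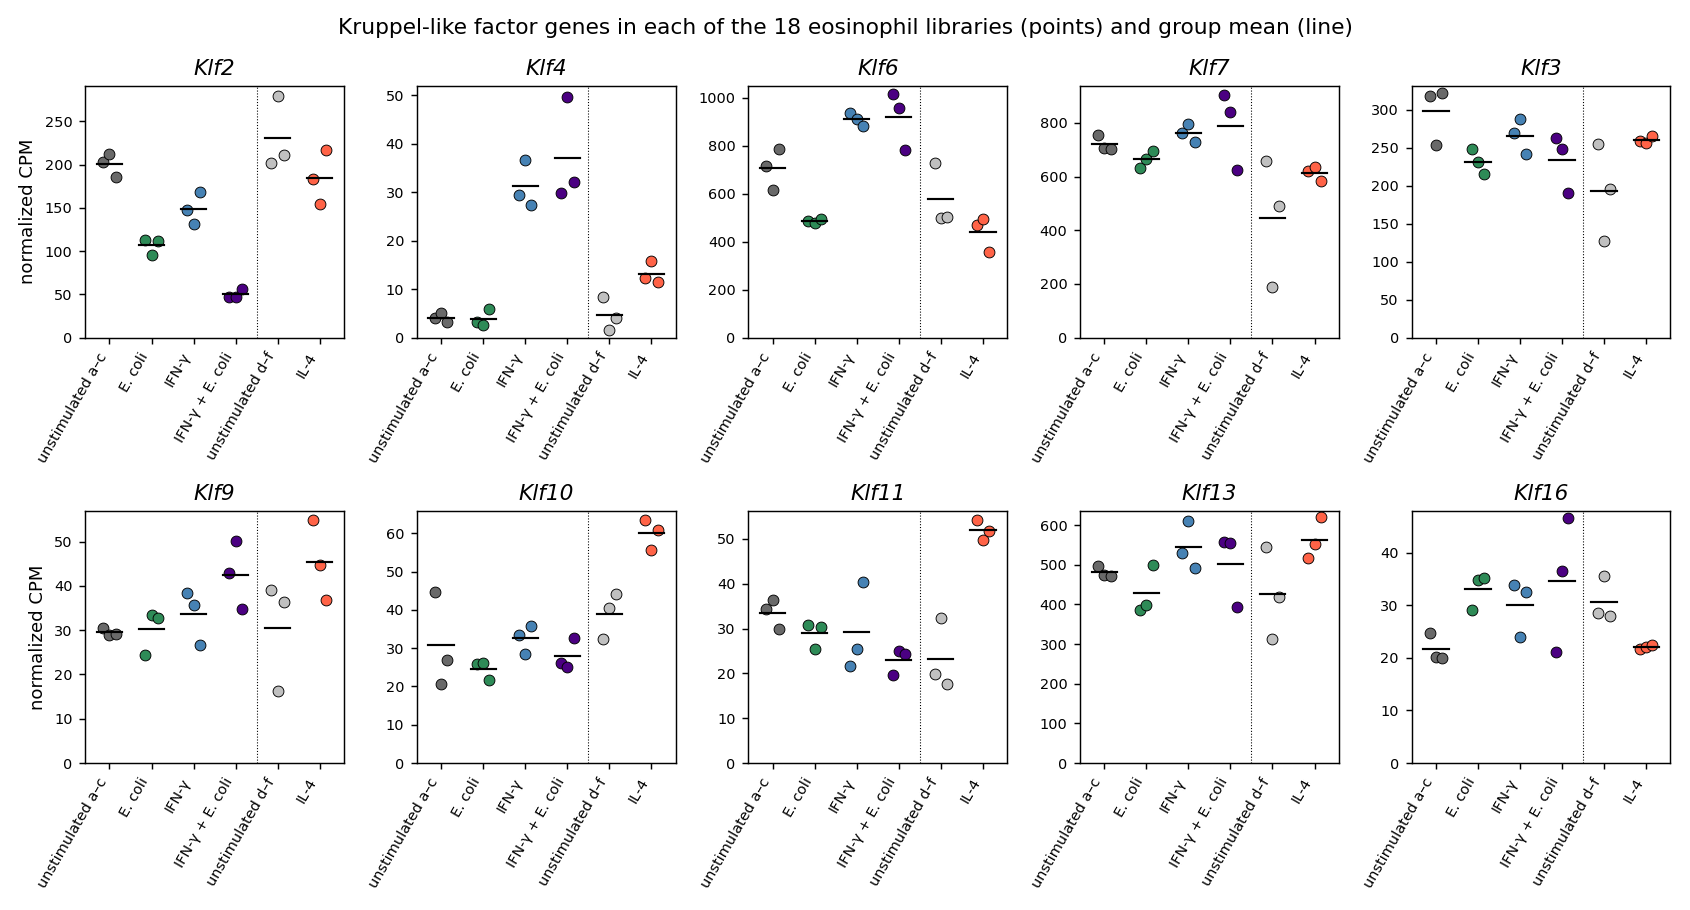
Normalized CPM of each member in each of the 18 libraries, by group, on an axis of its own from 0 for each gene, with points for libraries and lines for group means. *Klf4* stood at 4.06, 5.03 and 3.27 CPM in libraries a, b and c and at 29.8, 49.5 and 32.1 CPM with the combination, and *Klf2* fell from 204, 212 and 186 CPM to 46.4, 47.3 and 56.4 CPM.

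The comparisons ask how each stimulus changed the cells, and a gene is named as called, or as having risen or fallen, where the adjusted p of edgeR's quasi-likelihood test (Benjamini-Hochberg over all genes tested) was under 0.05. With *E. coli* 4 of the 10 members were called, beside 30.2% of the 9883 genes tested in that set. Among them 1 was higher, beside 13.5% of genes, and 3 were lower, beside 16.7%, and for 5 members the libraries of the groups did not overlap, beside 45.3% of genes. IFN-γ gave 3 calls beside 31.6%, 2 higher beside 15.6% and 1 lower beside 16.0%, and 3 members without overlap beside 45.7%. For the combination 7 members were called beside 49.0%, 4 higher beside 23.9% and 3 lower beside 25.2%, and 4 did not overlap beside 54.0%. These 3 comparisons share libraries a, b and c. IL-4 gave 2 calls beside 10.3% of the 10556 genes tested in its set, both higher beside 5.97%, none lower beside 4.35% (1 at an unadjusted p under 0.05, and 0 called with DESeq2), and 6 members without overlap beside 31.3%. With *E. coli* and with IFN-γ the share of members called was thus near that of all genes. With 1 library left out, 4 to 7 members and 4223 to 5001 genes were called with the combination. For IL-4 the same fits called 1 to 4 members and 483 to 1394 genes. Whether members differ from all genes was not tested for any stimulus. The median change of the 10 members was -0.20 (all genes -0.02) with *E. coli*, 0.12 (all genes -0.03) with IFN-γ, 0.09 (all genes -0.04) with the combination and 0.45 (all genes 0.00) with IL-4, on the log2 scale. With 1 library left out these medians were -0.28 to -0.12, 0.09 to 0.21, 0.02 to 0.25 and 0.21 to 0.65, the last of them 0.21 without library e, and against all 6 unstimulated libraries as 1 group they were -0.25, -0.02, 0.10 and 0.43. *Klf7* and *Klf13* were called in none of these 4 comparisons.

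*Klf2* (ENSMUSG00000055148, chr8:72319033-72321656, plus strand, GRCm38), which keeps lymphocytes quiescent and restrains inflammatory genes in myeloid cells, was lower with each of the Type 1 stimuli. It stood at 204, 212 and 186 CPM in unstimulated libraries a, b and c, 113, 95.6 and 112 CPM with *E. coli*, 148, 131 and 168 CPM with IFN-γ and 46.4, 47.3 and 56.4 CPM with the combination. The groups were ordered without overlap, with every unstimulated library above every IFN-γ library, these above every *E. coli* library, and the combination lowest. *Klf2* fell by 0.91 on the log2 scale with *E. coli* (SE 0.118, adjusted p = 9.71e-06), by 0.44 with IFN-γ (SE 0.118, adjusted p = 0.00845) and by 2.00 with the combination (SE 0.133, adjusted p = 5.51e-10). The call for IFN-γ alone ended without IFN-γ library 2 (-0.32, adjusted p = 0.0881). The combination lowered *Klf2* below IFN-γ alone, by 1.57 on the log2 scale (SE 0.136, adjusted p = 2.18e-07), where 1 of the 10 members was called beside 12.2% of genes. It was also below *E. coli* alone, by 1.09 (SE 0.136, adjusted p = 4.34e-06), and IFN-γ libraries were above *E. coli* libraries by 0.48 (SE 0.121, adjusted p = 0.00605), a call that ended without *E. coli* library 2 (0.40, adjusted p = 0.0501). The interaction, which tests whether the change with the combination differs from the sum of the changes with each stimulus on the log2 scale, was -0.65 (SE 0.180, adjusted p = 0.0418), so *Klf2* was lower with the combination than that sum gives. *Klf2* was the 1 member of 10 called for the interaction, beside 4.62% of genes. The interaction call ended in 8 of the 12 fits that left out 1 library (-0.67 to -0.58, adjusted p = 0.0647 to 0.117): without a, c, *E. coli* library 1 or 3, IFN-γ library 1 or 3, or combination library 1 or 2. It also ended with counts corrected for identifier collisions (-0.64, adjusted p = 0.0538), in a range of 0.0195 to 0.117 for the adjusted p over all alternatives and -0.78 to -0.58 for the value with 1 library left out. The alternatives with corrected counts, with only the 9 stimulated libraries and with the share of reads on no gene as a covariate were chosen after seeing the data.

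In the IL-4 set *Klf2* stood at 202, 279.6 and 211 CPM in unstimulated libraries d, e and f and 184, 154 and 217 CPM with IL-4. The groups overlapped, with library e highest. The log2 change was -0.32 (SE 0.166, adjusted p = 0.256), which was not called, and it was -0.17, adjusted p = 0.466 without library e and -0.03, adjusted p = 0.927 against all 6 unstimulated libraries as 1 group. Whether the response to IL-4 differs from those to the Type 1 stimuli was tested as a difference of the log2 changes in a model of all 18 libraries, each response against the unstimulated libraries of its own set. For *Klf2* the IL-4 response exceeded the response to the combination by 1.62 (SE 0.213, adjusted p = 3.20e-06) and the response to *E. coli* by 0.57 (SE 0.201, adjusted p = 0.0375). The difference from the IFN-γ response was 0.08 (adjusted p = 0.821). The difference from the *E. coli* response lost its call in 9 of 18 fits with 1 library left out (a, b, each *E. coli* library, d, f, IL-4 library 1 or 3), where it was 0.44 to 0.61 (adjusted p = 0.0504 to 0.118). It lost it too without a filter on low counts (0.55, adjusted p = 0.0639), in a range of 0.00458 to 0.118 for the adjusted p over all alternatives and 0.44 to 0.73 for the value with 1 library left out.

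*Klf4* (ENSMUSG00000003032, chr4:55527143-55532466, minus strand), a regulator of monocyte differentiation and 1 of the factors used to reprogram cells to pluripotency, showed the widest range of group means among the members. Its levels were 4.06, 5.03 and 3.27 CPM in unstimulated libraries a, b and c, 3.24, 2.66 and 5.88 CPM with *E. coli*, 29.5, 36.7 and 27.3 CPM with IFN-γ and 29.8, 49.5 and 32.1 CPM with the combination. Every library with IFN-γ, alone or with *E. coli*, was above every other library of the set, and the *E. coli* libraries overlapped the unstimulated ones. *Klf4* rose by 2.94 on the log2 scale with IFN-γ (SE 0.303, adjusted p = 5.52e-07) and by 3.20 with the combination (SE 0.299, adjusted p = 5.89e-08). The change with *E. coli* was -0.10 (SE 0.416, adjusted p = 0.891). IFN-γ libraries were higher than *E. coli* libraries by 3.04 (SE 0.299, adjusted p = 2.69e-07), and combination libraries were higher than *E. coli* libraries by 3.30 (SE 0.295, adjusted p = 6.55e-08). Between the combination and IFN-γ alone the log2 difference was 0.26 (adjusted p = 0.522), and the interaction was 0.36 (adjusted p = 0.775). In counts *Klf4* had 11, 8 and 8 in unstimulated libraries a, b and c and 8, 8 and 12 with *E. coli*.

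In the IL-4 set *Klf4* stood at 8.30, 1.49 and 3.95 CPM in unstimulated libraries d, e and f and 12.3, 15.7 and 11.4 CPM with IL-4. All IL-4 libraries were above all unstimulated ones, whose own values ranged widely. The log2 change was 1.61 (SE 0.462, adjusted p = 0.0518) and just missed the threshold. It passed without library d (2.29, adjusted p = 0.00707) or library e (1.16, adjusted p = 0.0289). It also passed with DESeq2 (1.57, adjusted p = 0.0116), without a filter on low counts (1.59, adjusted p = 6.96e-05) and against all 6 unstimulated libraries as 1 group (1.80, adjusted p = 0.00573), in a range of 6.96e-05 to 0.203 for the adjusted p over all alternatives and 1.16 to 2.29 for the value with 1 library left out. The IL-4 response of *Klf4* was below the response to the combination (log2 difference -1.62, adjusted p = 0.0293). That call ended in 6 of 18 fits with 1 library left out (a, c, combination library 2, d, IL-4 library 1 or 3), at -1.62 to -0.97 (adjusted p = 0.0508 to 0.151), and it was smallest without d (-0.97). Against the IFN-γ response the difference was -1.33 (adjusted p = 0.0909), which passed without library e (-1.81, adjusted p = 0.00690). It passed as well without a filter on low counts (-1.32, adjusted p = 0.0370), in a range of 0.00690 to 0.355 for the adjusted p over all alternatives and -1.81 to -0.68 for the value with 1 library left out. Against the *E. coli* response it was 1.72 (adjusted p = 0.0564), which passed without *E. coli* library 3 or library d (2.08 to 2.37, adjusted p = 0.00391 to 0.0346). This difference passed too with DESeq2 (1.64, adjusted p = 0.0407) and without a filter on low counts (1.70, adjusted p = 0.0131), in a range of 0.00391 to 0.138 for the adjusted p over all alternatives and 1.25 to 2.37 for the value with 1 library left out.

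*Klf6* (ENSMUSG00000000078, chr13:5861482-5870394, plus strand) is an early response gene that induces the cell cycle inhibitor gene *Cdkn1a* and takes part in inflammatory gene expression of macrophages. It was measured at 715, 617 and 788 CPM in unstimulated libraries a, b and c, 486, 476 and 496 CPM with *E. coli*, 936, 912 and 884 CPM with IFN-γ and 1017, 959 and 783 CPM with the combination. All *E. coli* libraries were below the unstimulated ones, all IFN-γ libraries were above them, and the combination libraries overlapped the unstimulated range at its upper end. *Klf6* fell by 0.54 on the log2 scale with *E. coli* (SE 0.119, adjusted p = 0.00174), rose by 0.36 with IFN-γ (SE 0.118, adjusted p = 0.0258) and rose by 0.38 with the combination (SE 0.118, adjusted p = 0.0132). The rise with IFN-γ lost its call without a, b or IFN-γ library 1 (0.30 to 0.37, adjusted p = 0.0586 to 0.0696), and the rise with the combination lost it without combination library 1 (0.32, adjusted p = 0.0501). The call with IFN-γ was further lost with at least 10 counts required in every library (0.31, adjusted p = 0.0523), against all 6 unstimulated libraries as 1 group (0.34, adjusted p = 0.130) and with counts corrected for identifier collisions (0.36, adjusted p = 0.0603), in a range of 0.00142 to 0.130 for the adjusted p over all alternatives and 0.30 to 0.45 for the value with 1 library left out. That with the combination was lost with only the 6 compared libraries (0.37, adjusted p = 0.0583), against all 6 unstimulated libraries as 1 group (0.39, adjusted p = 0.0640) and with counts corrected for identifier collisions (0.34, adjusted p = 0.0528), in a range of 0.000643 to 0.0640 for the adjusted p over all alternatives and 0.31 to 0.50 for the value with 1 library left out. The direction thus differed between the stimuli, and the direct tests called that difference: IFN-γ was above *E. coli* by 0.91 (SE 0.119, adjusted p = 9.99e-06) and the combination was above *E. coli* by 0.92 (SE 0.119, adjusted p = 7.24e-06). The combination and IFN-γ alone differed by 0.01 (adjusted p = 0.961). The interaction was 0.56 (adjusted p = 0.0660) and passed without library b or combination library 3 (0.62 to 0.63, adjusted p = 0.0291 to 0.0292). The interaction of *Klf6* passed also with DESeq2 (0.56, adjusted p = 0.0212) and with the share of reads on no gene as a covariate (0.49, adjusted p = 0.0323), in a range of 0.0212 to 0.181 for the adjusted p over all alternatives and 0.46 to 0.63 for the value with 1 library left out. In all, 3 of 10 members were called between IFN-γ and *E. coli*, beside 25.5% of genes, and these were *Klf2*, *Klf4* and *Klf6*, each higher with IFN-γ. Between the combination and *E. coli* 4 of 10 were called, beside 32.8% of genes: *Klf2* lower, and *Klf4*, *Klf6* and *Klf9* higher.

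In the IL-4 set *Klf6* was at 729.7, 499 and 503 CPM in unstimulated libraries d, e and f and 469.9, 495 and 355 CPM with IL-4. The IL-4 libraries were below the unstimulated ones without overlap, although by little between IL-4 library 2 and library e. The log2 change was -0.39 (SE 0.178, adjusted p = 0.205) and was not called. The response of *Klf6* to IL-4 was below its response to the combination (difference -0.83, adjusted p = 0.00412) and below its response to IFN-γ (difference -0.78, adjusted p = 0.00919). Its difference from the *E. coli* response was 0.14 (adjusted p = 0.678).

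*Klf7* (ENSMUSG00000025959, chr1:64029447-64122282, minus strand), known for its role in neurite outgrowth, was called in none of the comparisons with unstimulated cells. Levels were 756, 708 and 702 CPM in unstimulated libraries a, b and c, 634, 664 and 696 CPM with *E. coli*, 762, 798 and 729 CPM with IFN-γ and 903, 841 and 626 CPM with the combination. The *E. coli* libraries lay just below the unstimulated ones, and the other stimulated groups overlapped them. The log2 changes were -0.12 with *E. coli* (adjusted p = 0.493), 0.08 with IFN-γ (adjusted p = 0.682) and 0.13 with the combination (adjusted p = 0.415). The difference between the combination and *E. coli* was 0.25 (adjusted p = 0.132), and it passed without combination library 3 (0.38, adjusted p = 0.0152). It also passed with the share of reads on no gene as a covariate (0.31, adjusted p = 0.0174), in a range of 0.0152 to 0.439 for the adjusted p over all alternatives and 0.15 to 0.38 for the value with 1 library left out, and the difference between IFN-γ and *E. coli* (0.20, adjusted p = 0.262) passed with the share of reads on no gene as a covariate (0.30, adjusted p = 0.0323), in a range of 0.0323 to 0.517 for the adjusted p over all alternatives and 0.16 to 0.23 for the value with 1 library left out. The IL-4 set had 659, 187 and 491 CPM in unstimulated libraries d, e and f and 622, 635 and 583 CPM with IL-4. Library e was far below all the others, and the groups overlapped. With IL-4 the log2 change of *Klf7* was 0.46 (adjusted p = 0.428), and without library e it was 0.09, adjusted p = 0.695. That change passed without a filter on low counts (0.44, adjusted p = 0.0267), in a range of 0.0267 to 0.695 for the adjusted p over all alternatives and 0.09 to 0.85 for the value with 1 library left out. The difference of its IL-4 response from the *E. coli* response was 0.57 (adjusted p = 0.250) and passed without library d (0.96, adjusted p = 0.0265). So it did without a filter on low counts (0.55, adjusted p = 0.0370), in a range of 0.0265 to 0.491 for the adjusted p over all alternatives and 0.19 to 0.96 for the value with 1 library left out. *Klf7* shares 3196 bp of exon positions with *Gm26649* and 4 bp with *Gm13748*, both on the opposite strand, and since the use of the strand in counting is not stated, it is uncertain whether its counts include reads of these genes.

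*Klf3* (ENSMUSG00000029178, chr5:64803388-64832901, plus strand) represses through CtBP and is known from erythroid and B cells, where it competes with activators of the family for the same sites. Its values were 317, 254 and 322 CPM in unstimulated libraries a, b and c, 248, 231 and 216 CPM with *E. coli*, 269, 287 and 242 CPM with IFN-γ and 263, 249 and 190.2 CPM with the combination. The *E. coli* libraries were all below the unstimulated ones, and the groups with IFN-γ overlapped them. *Klf3* fell by 0.37 on the log2 scale with *E. coli* (SE 0.129, adjusted p = 0.0365) and by 0.36 with the combination (SE 0.131, adjusted p = 0.0307), and with IFN-γ the change was -0.17 (adjusted p = 0.344). With *E. coli* the call ended in 7 of 12 fits (without a, c, any *E. coli* library, or IFN-γ library 1 or 2), at -0.41 to -0.31 (adjusted p = 0.0515 to 0.136). It ended as well without a filter on low counts (-0.33, adjusted p = 0.0684) and against all 6 unstimulated libraries as 1 group (-0.24, adjusted p = 0.378), in a range of 0.0126 to 0.378 for the adjusted p over all alternatives and -0.45 to -0.31 for the value with 1 library left out. With the combination it ended without a, c or combination library 3, at -0.31 to -0.21 (adjusted p = 0.107 to 0.181), and without combination library 3 the value was -0.21, adjusted p = 0.181. The call with the combination ended too with only the 6 compared libraries (-0.37, adjusted p = 0.0640), against all 6 unstimulated libraries as 1 group (-0.18, adjusted p = 0.470) and with the share of reads on no gene as a covariate (-0.22, adjusted p = 0.0825), in a range of 0.0109 to 0.470 for the adjusted p over all alternatives and -0.44 to -0.21 for the value with 1 library left out. Between IFN-γ and *E. coli* the difference of *Klf3* was 0.20 (adjusted p = 0.289), and it passed with the share of reads on no gene as a covariate (0.33, adjusted p = 0.0187), in a range of 0.0187 to 0.530 for the adjusted p over all alternatives and 0.15 to 0.26 for the value with 1 library left out.

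For *Klf3* the IL-4 set had 255, 127 and 196 CPM in unstimulated libraries d, e and f and 259, 256 and 265 CPM with IL-4. All IL-4 libraries were above the unstimulated ones, by little for library d and by more for e and f. The log2 change was 0.44 (SE 0.207, adjusted p = 0.218), not called, and it passed without library d (0.69, adjusted p = 0.0361). Without library e, the lowest, it was 0.21, adjusted p = 0.297. The IL-4 response exceeded the response to *E. coli* by 0.79 (adjusted p = 0.0206), a call that ended without a or c (0.72 to 0.75, adjusted p = 0.0530 to 0.0542). It exceeded the response to the combination by 0.73 (adjusted p = 0.0244), a call that ended without a, c or combination library 3 (0.63 to 0.69, adjusted p = 0.0572 to 0.0605). Its difference from the IFN-γ response was 0.58 (adjusted p = 0.0905) and passed without library d (0.82, adjusted p = 0.00826). It passed further without a filter on low counts (0.59, adjusted p = 0.0346) and with at least 10 counts required in every library (0.69, adjusted p = 0.0469), in a range of 0.00826 to 0.205 for the adjusted p over all alternatives and 0.34 to 0.82 for the value with 1 library left out. *Klf3* shares 404 bp of exon positions with *Gm20033* on the opposite strand, with the same uncertainty as for *Klf7*.

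Among the Sin3A-binding members, *Klf9* (ENSMUSG00000033863, chr19:23141226-23168134, plus strand) is a gene induced by glucocorticoids and thyroid hormone. Its levels were 30.6, 28.9 and 29.1 CPM in unstimulated libraries a, b and c, 24.3, 33.5 and 32.8 CPM with *E. coli*, 38.4, 35.6 and 26.7 CPM with IFN-γ and 42.8, 50.1 and 34.8 CPM with the combination. Combination libraries were all above the unstimulated ones, and *E. coli* and IFN-γ libraries overlapped them. *Klf9* rose by 0.53 on the log2 scale with the combination (SE 0.184, adjusted p = 0.0238), while the changes were 0.03 with *E. coli* (adjusted p = 0.930) and 0.19 with IFN-γ (adjusted p = 0.486). The rise lost its call without c or combination library 2 (0.39 to 0.51, adjusted p = 0.0585 to 0.143). It was also lost against all 6 unstimulated libraries as 1 group (0.34, adjusted p = 0.300), in a range of 0.00474 to 0.300 for the adjusted p over all alternatives and 0.39 to 0.67 for the value with 1 library left out. It was higher with the combination than with *E. coli* by 0.50 (SE 0.181, adjusted p = 0.0420), which ended without a, c, *E. coli* library 1 or 2, or combination library 1 or 2 (0.35 to 0.59, adjusted p = 0.0506 to 0.227). This call ended too with DESeq2 (0.51, adjusted p = 0.0721), without a filter on low counts (0.46, adjusted p = 0.0957), with at least 10 counts required in every library (0.47, adjusted p = 0.0578), with only the 6 compared libraries (0.49, adjusted p = 0.0734) and with only the 9 stimulated libraries (0.49, adjusted p = 0.0637), in a range of 0.0105 to 0.227 for the adjusted p over all alternatives and 0.35 to 0.62 for the value with 1 library left out. The IL-4 set had 39.0, 16.3 and 36.3 CPM in unstimulated libraries d, e and f and 54.9, 44.7 and 36.9 CPM with IL-4. The groups overlapped, with library e lowest. With IL-4 the log2 change was 0.60 (adjusted p = 0.233), and without library e it was 0.28, adjusted p = 0.357. It passed the threshold without a filter on low counts (0.58, adjusted p = 0.0432) and against all 6 unstimulated libraries as 1 group (0.80, adjusted p = 0.0381), in a range of 0.0381 to 0.536 for the adjusted p over all alternatives and 0.28 to 0.80 for the value with 1 library left out.

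*Klf10* (ENSMUSG00000037465, chr15:38291463-38300706, minus strand) and *Klf11* (ENSMUSG00000020653, chr12:24651274-24662789, plus strand) were both first described as genes that TGF-β induces early. They were the members called with IL-4. *Klf11* stood at 19.9, 32.4 and 17.7 CPM in unstimulated libraries d, e and f and 54.3, 49.8 and 51.9 CPM with IL-4. All IL-4 libraries were above all unstimulated ones by a gap wider than the spread within either group. *Klf11* rose by 1.15 on the log2 scale (SE 0.218, adjusted p = 0.00818), and it was called in each fit with 1 library left out, without library e at 1.47, adjusted p = 2.82e-05. *Klf10* stood at 32.4, 40.5 and 44.2 CPM in unstimulated libraries d, e and f and 63.6, 55.6 and 60.9 CPM with IL-4. The IL-4 libraries were again all higher, and close to each other. *Klf10* rose by 0.62 (SE 0.157, adjusted p = 0.0331), a call that ended in 4 of 6 fits with 1 library left out (d or any IL-4 library), at 0.50 to 0.66 (adjusted p = 0.0719 to 0.136). Without library e its change was 0.63, adjusted p = 0.0165.

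In the other set *Klf11* was at 34.3, 36.5 and 29.9 CPM in unstimulated libraries a, b and c, 30.8, 25.6 and 30.4 CPM with *E. coli*, 21.7, 25.5 and 40.3 CPM with IFN-γ and 19.6, 25.0 and 24.3 CPM with the combination. The combination libraries were below the unstimulated ones, and the groups with a single stimulus overlapped them. *Klf11* fell by 0.53 on the log2 scale with the combination (SE 0.212, adjusted p = 0.0443), and with *E. coli* and IFN-γ the changes were -0.22 (adjusted p = 0.434) and -0.22 (adjusted p = 0.446). Its call with the combination ended in 8 of 12 fits (without a, b, *E. coli* library 1 or 2, IFN-γ library 2 or any combination library), at -0.60 to -0.41 (adjusted p = 0.0509 to 0.164). The same call ended with DESeq2's size factors (-0.51, adjusted p = 0.0581), with DESeq2 (-0.51, adjusted p = 0.0980), without a filter on low counts (-0.53, adjusted p = 0.0542) and against all 6 unstimulated libraries as 1 group (-0.42, adjusted p = 0.131), in a range of 0.0139 to 0.164 for the adjusted p over all alternatives and -0.61 to -0.41 for the value with 1 library left out. *Klf10* was at 44.6, 20.8 and 27.0 CPM in unstimulated libraries a, b and c, 25.9, 26.2 and 21.6 CPM with *E. coli*, 33.4, 28.5 and 35.8 CPM with IFN-γ and 26.1, 25.0 and 32.8 CPM with the combination. These groups all overlapped the unstimulated one, in which library a was the highest of the set. *Klf10* changed by no called amount there, with log2 values of -0.36 (adjusted p = 0.235), 0.03 (adjusted p = 0.944) and -0.19 (adjusted p = 0.525) for *E. coli*, IFN-γ and the combination. Against all 6 unstimulated libraries as 1 group these values were -0.74 (adjusted p = 0.0516), -0.32 (adjusted p = 0.380) and -0.52 (adjusted p = 0.129).

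The tests of the difference separated the IL-4 response of *Klf11* from each Type 1 response: it was higher by 1.34 than with *E. coli* (SE 0.298, adjusted p = 0.00173), by 1.32 than with IFN-γ (SE 0.304, adjusted p = 0.00239) and by 1.62 than with the combination (SE 0.312, adjusted p = 0.000295). *Klf11* kept these 3 calls in every fit with 1 of the 18 libraries left out. For *Klf10* the IL-4 response was higher than the *E. coli* response by 0.95 (SE 0.278, adjusted p = 0.0131), which ended without library a (0.57, adjusted p = 0.110). It was higher than the response to the combination by 0.74 (SE 0.285, adjusted p = 0.0447), which ended in 12 of 18 fits (0.36 to 0.78, adjusted p = 0.0505 to 0.302): without a, *E. coli* library 1 or 2, any IFN-γ library, combination library 1 or 2, d, or any IL-4 library, and it was smallest without a (0.36). It ended further with DESeq2 (0.74, adjusted p = 0.0547), in a range of 0.0100 to 0.302 for the adjusted p over all alternatives and 0.36 to 0.92 for the value with 1 library left out. The difference of *Klf10* from the IFN-γ response was 0.55 (adjusted p = 0.151), which passed without library b (0.73, adjusted p = 0.0452), and with 1 library left out it ranged from 0.17 to 0.73 (adjusted p = 0.0452 to 0.696 over all alternatives).

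*Klf13* (ENSMUSG00000052040, chr7:63886351-63938915, minus strand), known from T cells as an activator of the chemokine gene *Ccl5*, was called in no comparison with unstimulated cells. It stood at 498, 476 and 473 CPM in unstimulated libraries a, b and c, 385, 399.7 and 499 CPM with *E. coli*, 530.3, 611 and 493 CPM with IFN-γ and 559, 555 and 393 CPM with the combination. Every stimulated group overlapped the unstimulated one. Its log2 changes were -0.18 with *E. coli* (adjusted p = 0.363), 0.17 with IFN-γ (adjusted p = 0.371) and 0.05 with the combination (adjusted p = 0.769). Between IFN-γ and *E. coli* the difference was 0.35 (adjusted p = 0.0722), which passed without *E. coli* library 3 or combination library 3 (0.35 to 0.47, adjusted p = 0.0232 to 0.0262). It also passed with only the 6 compared libraries (0.35, adjusted p = 0.0333) and with the share of reads on no gene as a covariate (0.46, adjusted p = 0.00411), in a range of 0.00411 to 0.248 for the adjusted p over all alternatives and 0.27 to 0.47 for the value with 1 library left out. Between the combination and *E. coli* it was 0.23 (adjusted p = 0.218), which passed without combination library 3 (0.38, adjusted p = 0.0326). This one passed too with the share of reads on no gene as a covariate (0.31, adjusted p = 0.0374), in a range of 0.0326 to 0.523 for the adjusted p over all alternatives and 0.15 to 0.38 for the value with 1 library left out. The IL-4 set had 546, 314 and 420.1 CPM in unstimulated libraries d, e and f and 518, 551 and 619.7 CPM with IL-4. The groups overlapped through library d, and library e was lowest. With IL-4 the change was 0.40 (adjusted p = 0.199), and it passed without library d (0.61, adjusted p = 0.0341) and was 0.22, adjusted p = 0.281 without library e. Its IL-4 response differed from the *E. coli* response by 0.56 (adjusted p = 0.0833), which passed without *E. coli* library 3 or library d (0.68 to 0.77, adjusted p = 0.0118 to 0.0471) and without a filter on low counts (0.55, adjusted p = 0.0433), in a range of 0.0118 to 0.195 for the adjusted p over all alternatives and 0.38 to 0.77 for the value with 1 library left out. *Ccl5* itself rose by 0.84 with IFN-γ (adjusted p = 0.00262) and by 1.60 with the combination (adjusted p = 1.82e-06).

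*Klf16* (ENSMUSG00000035397, chr10:80567124-80577321, minus strand), another Sin3A-binding member, was higher with 2 of the Type 1 stimuli. Its levels were 24.7, 20.1 and 20.1 CPM in unstimulated libraries a, b and c, 29.2, 34.9 and 35.3 CPM with *E. coli*, 33.9, 23.9 and 32.5 CPM with IFN-γ and 21.0, 36.5 and 46.6 CPM with the combination. All *E. coli* libraries were above the unstimulated ones, and the other groups overlapped them, with the combination spread widest. *Klf16* rose by 0.60 on the log2 scale with *E. coli* (SE 0.221, adjusted p = 0.0477) and by 0.68 with the combination (SE 0.231, adjusted p = 0.0210), and with IFN-γ the change was 0.45 (adjusted p = 0.151). Against all 6 unstimulated libraries as 1 group the change with IFN-γ was -0.03 (adjusted p = 0.946). With the share of reads on no gene as a covariate that change was 0.24 (adjusted p = 0.491). The call with *E. coli* ended in 7 of 12 fits (without a, b, c, *E. coli* library 2 or 3, IFN-γ library 1 or combination library 2), at 0.54 to 0.72 (adjusted p = 0.0511 to 0.133), and the call with the combination ended without c or combination library 2 or 3, at 0.44 to 0.65 (adjusted p = 0.0627 to 0.133), smallest without combination library 3 (0.44). The *E. coli* call of *Klf16* ended also with DESeq2 (0.61, adjusted p = 0.0713), with at least 10 counts required in every library (0.57, adjusted p = 0.0588) and against all 6 unstimulated libraries as 1 group (0.09, adjusted p = 0.828), in a range of 0.0119 to 0.828 for the adjusted p over all alternatives and 0.54 to 0.72 for the value with 1 library left out. Its call with the combination ended against all 6 unstimulated libraries as 1 group (0.20, adjusted p = 0.581) and with the share of reads on no gene as a covariate (0.49, adjusted p = 0.0916), in a range of 0.00114 to 0.581 for the adjusted p over all alternatives and 0.44 to 0.94 for the value with 1 library left out. In the IL-4 set it stood at 28.5, 35.5 and 28.0 CPM in unstimulated libraries d, e and f and 21.8, 22.0 and 22.5 CPM with IL-4. The IL-4 libraries were all lower and nearly equal. The log2 change was -0.48 (adjusted p = 0.0988) and was not called, and against all 6 unstimulated libraries as 1 group it was -0.09, adjusted p = 0.853. Its IL-4 response was below each Type 1 response, with differences of -1.10 (adjusted p = 0.00611) from *E. coli*, -0.97 (adjusted p = 0.0169) from IFN-γ and -1.21 (adjusted p = 0.00214) from the combination.

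**Figure D2:**
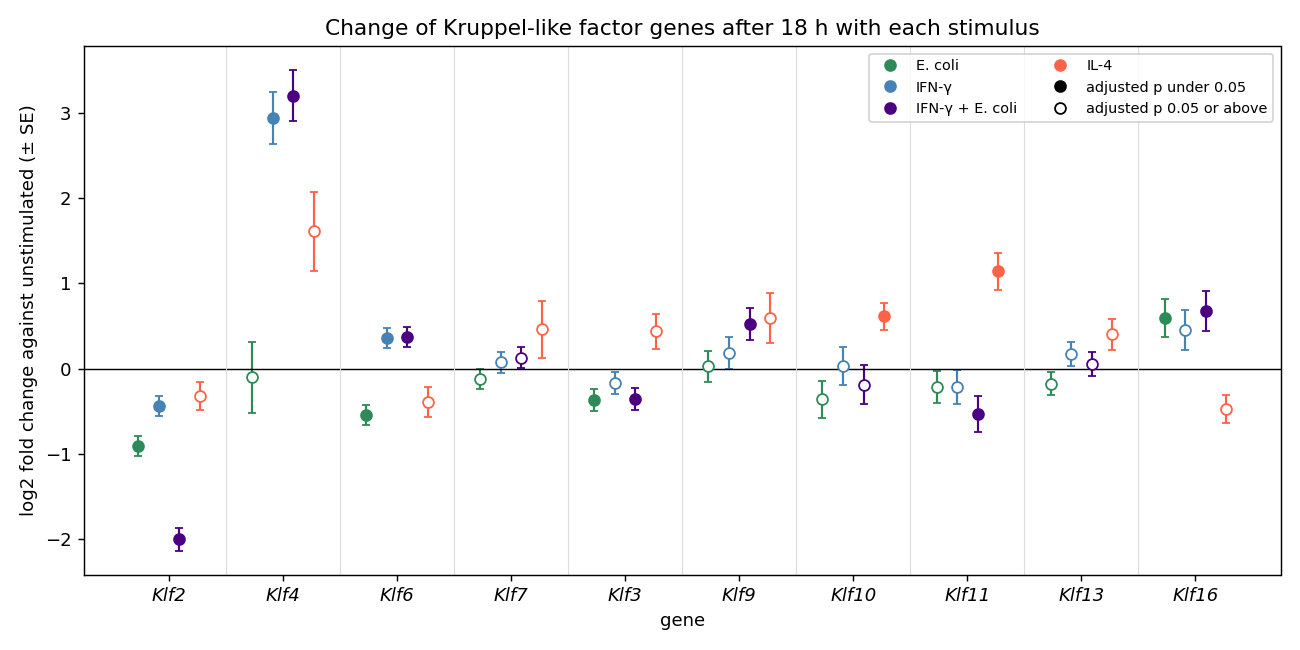
Log2 change of each member against the unstimulated libraries of its own set, for each stimulus, with bars of 1 SE of the fit on either side and filled points for called changes. *Klf4* lies at 2.94 with IFN-γ and 3.20 with the combination, *Klf2* at -0.91 with *E. coli* and *Klf11* at 1.15 with IL-4.

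The changes against unstimulated cells ranged as follows over the fits with 1 library left out. For *E. coli* the range was -0.96 to -0.83 for *Klf2*, -0.45 to -0.31 for *Klf3*, -0.44 to 0.15 for *Klf4*, -0.61 to -0.45 for *Klf6*, -0.15 to -0.08 for *Klf7*, -0.05 to 0.17 for *Klf9*, -0.52 to 0.03 for *Klf10*, -0.29 to -0.12 for *Klf11*, -0.29 to -0.10 for *Klf13* and 0.54 to 0.72 for *Klf16*. With IFN-γ it was -0.51 to -0.32 for *Klf2*, -0.24 to -0.09 for *Klf3*, 2.80 to 3.09 for *Klf4*, 0.30 to 0.45 for *Klf6*, 0.06 to 0.13 for *Klf7*, 0.09 to 0.34 for *Klf9*, -0.13 to 0.41 for *Klf10*, -0.48 to -0.04 for *Klf11*, 0.11 to 0.26 for *Klf13* and 0.36 to 0.63 for *Klf16*. The combination gave -2.08 to -1.93 for *Klf2*, -0.44 to -0.21 for *Klf3*, 2.93 to 3.36 for *Klf4*, 0.31 to 0.50 for *Klf6*, 0.05 to 0.28 for *Klf7*, 0.39 to 0.67 for *Klf9*, -0.35 to 0.20 for *Klf10*, -0.61 to -0.41 for *Klf11*, -0.02 to 0.22 for *Klf13* and 0.44 to 0.94 for *Klf16*. IL-4 gave -0.47 to -0.17 for *Klf2*, 0.21 to 0.69 for *Klf3*, 1.16 to 2.29 for *Klf4*, -0.49 to -0.19 for *Klf6*, 0.09 to 0.85 for *Klf7*, 0.28 to 0.80 for *Klf9*, 0.50 to 0.71 for *Klf10*, 0.97 to 1.47 for *Klf11*, 0.22 to 0.61 for *Klf13* and -0.55 to -0.36 for *Klf16*. Against all 6 unstimulated libraries as 1 group the changes with IL-4 were -0.03 for *Klf2*, 0.34 for *Klf3*, 1.80 for *Klf4*, -0.32 for *Klf6*, 0.33 for *Klf7*, 0.80 for *Klf9*, 0.95 for *Klf10*, 1.11 for *Klf11*, 0.53 for *Klf13* and -0.09 for *Klf16*.

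In the tests between responses, the IL-4 response differed from the response to the combination for 7 of 10 members, beside 39.2% of the 10671 genes tested in the model of 18 libraries: higher for *Klf2*, *Klf3*, *Klf10* and *Klf11*, lower for *Klf4*, *Klf6* and *Klf16*. It differed from the IFN-γ response for 3 members (*Klf11* higher, *Klf6* and *Klf16* lower), beside 27.8% of genes, and from the *E. coli* response for 5 (*Klf2*, *Klf3*, *Klf10* and *Klf11* higher, *Klf16* lower), beside 28.1%. The median difference over the members was 0.28 (all genes 0.00), 0.28 (all genes 0.02) and 0.57 (all genes 0.04) on the log2 scale, in that order, with 0.00 to 0.56, 0.04 to 0.42 and 0.47 to 0.81 over the fits with 1 library left out. These 3 differences share the IL-4 libraries and all unstimulated libraries, and the set of a response cannot be told apart from the stimulus. For the tests between stimuli the medians were -0.05 (all genes 0.01) between the combination and IFN-γ, 0.20 (all genes -0.02) between the combination and *E. coli*, 0.27 (all genes -0.02) between IFN-γ and *E. coli*, and 0.16 (all genes 0.00) for the interaction, with -0.12 to -0.01, 0.17 to 0.26, 0.22 to 0.30 and 0.06 to 0.23 over the fits with 1 library left out.

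The genes whose pattern over the 12 libraries of the Type 1 set was most like that of a member were found by Pearson's r of log2 CPM (n = 12 libraries in 4 groups), for the 3 members with the widest range. For *Klf4* these were *Eif4ebp1* (r = 0.989), *Gbp4* (r = 0.982) and *Wars* (r = 0.980). *Klf2* was most like *Tbc1d8* (r = 0.977), *Nxpe4* (r = 0.973) and *Rfc2* (r = 0.971), and *Klf6* most like *Herc1* (r = 0.983), *Herc6* (r = 0.975) and *Gbp7* (r = 0.971). The values describe shared group patterns and carry no test.

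Most other genes of the family were scarce: *Klf1*, *Klf8*, *Klf12*, *Klf14*, *Klf15* and *Klf17* had at most 8 counts in any library, and *Klf14* and *Klf17* had 0. *Klf5* was measured at 91.1, 84.9 and 87.2 CPM in libraries a, b and c and was not called with *E. coli* (0.28), IFN-γ (-0.06), the combination (0.19) or IL-4 (0.36). Of the 9 related Sp factors, which bind the same GC-rich sequences, 4 (*Sp1* to *Sp4*) were tested, and edgeR and DESeq2 called none in the 4 comparisons with unstimulated cells (1 had an unadjusted p under 0.05, with *E. coli*).

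Partners and regulators of the members were measured in the same libraries. Of 8 corepressor genes, which serve *Klf3* and the Sin3A-binding members, 2 rose with *E. coli* (*Hdac1* by 0.40, adjusted p = 0.0116, and *Sin3b* by 0.29, adjusted p = 0.0452), 1 rose with the combination (*Sin3b* by 0.36, adjusted p = 0.0102), and none was called with IFN-γ or IL-4 by edgeR or DESeq2 (0 and 1 at an unadjusted p under 0.05). The median log2 changes of the list were 0.13, -0.05, 0.03 and -0.14 with *E. coli*, IFN-γ, the combination and IL-4, and the medians of the lists below are given in this order, beside the all-gene medians above. Of 4 acetyltransferase genes that serve the activators, *Kat2a* fell by 1.52 with *E. coli* (adjusted p = 0.000226), by 2.06 with IFN-γ (adjusted p = 3.54e-05) and by 2.68 with the combination (adjusted p = 2.74e-06). *Kat2b* rose by 0.63 with IFN-γ (adjusted p = 0.000831) and by 0.62 with the combination (adjusted p = 0.000525), and *Ep300* and *Crebbp* were not called (list medians -0.12, 0.09, 0.27 and 0.25). Among 7 genes that govern the breakdown of these factors, 2 rose with *E. coli* and 3 each with IFN-γ and the combination, and none was called with IL-4 by edgeR or DESeq2 (2 at an unadjusted p under 0.05, list medians 0.06, 0.11, 0.14 and 0.05). The ubiquitin ligase gene *Smurf1*, whose product degrades Klf2, rose by 1.31 with *E. coli* (adjusted p = 7.35e-07), by 0.41 with IFN-γ (adjusted p = 0.0443) and by 0.78 with the combination (adjusted p = 0.000225). *Vhl*, whose product degrades Klf4, rose by 0.58 with *E. coli* (adjusted p = 0.0348), by 0.70 with IFN-γ (adjusted p = 0.0149) and by 1.17 with the combination (adjusted p = 9.31e-05).

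The kinase ERK5, encoded by *Mapk7*, and the MEF2 factors induce *Klf2* in endothelial cells. Of the 6 tested genes of that route in the Type 1 set, 1 rose with *E. coli*, 2 rose and 1 fell with IFN-γ, and 2 rose with the combination, and of 7 tested in the IL-4 set edgeR and DESeq2 called none (2 at an unadjusted p under 0.05, list medians -0.12, 0.01, 0.21 and 0.04). *Mapk7* rose by 0.46, 0.62 and 0.65 with *E. coli*, IFN-γ and the combination, *Mef2d* rose by 0.58 with IFN-γ and 0.86 with the combination, and *Map3k3* fell by 1.06 with IFN-γ (adjusted p = 0.0494). Of 7 genes of the TGF-β route, which induces *Klf10* and *Klf11*, 3 rose and 1 fell with *E. coli*, 2 rose with IFN-γ, 3 rose with the combination and 1 rose with IL-4 (list medians 0.26, 0.25, 0.17 and -0.09). The gene called with IL-4 was the inhibitor *Smad7*, which Klf10 and Klf11 are known to repress, at 11.3, 5.61 and 5.07 CPM in libraries d, e and f and 18.7, 21.3 and 19.4 CPM with IL-4. All IL-4 libraries were higher, and *Smad7* rose by 1.48 on the log2 scale (SE 0.296, adjusted p = 0.0107). *Smad7* also rose by 0.55 with *E. coli* (adjusted p = 0.0311), 0.58 with IFN-γ (adjusted p = 0.0292) and 1.29 with the combination (adjusted p = 1.29e-05).

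Of 7 genes of the glucocorticoid response, to which *Klf9* belongs, 1 rose and 3 fell with each of the Type 1 stimuli, and 1 fell with IL-4 (list medians -0.42, -0.44, 0.01 and 0.42). *Tsc22d3*, a glucocorticoid-induced leucine zipper gene, fell by 2.21 with *E. coli* and 2.21 with the combination and by 1.21 with IFN-γ, whereas *Per1* rose by 0.87, 2.36 and 2.46, and *Dusp1* fell by 0.93 with IL-4 (adjusted p = 0.0419). Of 12 known target genes of the members 9 were tested in the Type 1 set: 4 rose and 2 fell with *E. coli*, 5 rose with IFN-γ, and 6 rose and 3 fell with the combination. In the IL-4 set 10 were tested, 1 rose (*Smad7*) and 1 fell (*S1pr1*, -0.49, adjusted p = 0.0327), and the list medians were 0.24, 0.58, 1.29 and -0.04. *S1pr1*, a lymphocyte trafficking gene and known target of *Klf2*, rose by 0.62 with *E. coli* (adjusted p = 0.000924) and fell by 0.62 with the combination (adjusted p = 0.000922), and its change with IFN-γ was 0.03 (adjusted p = 0.876). Of genes tied to *Klf4* and *Klf6*, *Nos2* rose by 1.65, 3.76 and 4.73 with *E. coli*, IFN-γ and the combination, and *Cdkn1a* rose by 1.32 with IFN-γ and 2.13 with the combination. *Cdkn1a* stood at 365, 276 and 372 CPM in libraries a, b and c and at 955, 870.1 and 1061 CPM with *E. coli*, and rose there (adjusted p = 2.55e-07). Changes of these genes and of the members are given side by side, and no relation between them was tested.

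Measures other than the stimulus also moved with the members. The share of reads on no gene was 37.6%, 25.1% and 34.1% in libraries a, b and c, 28.6, 32.8 and 30.8 percent with *E. coli*, 24.8, 31.7 and 20.8 percent with IFN-γ and 32.8, 29.8 and 18.9 percent with the combination. Within groups, over n = 12 libraries, its Pearson's r was 0.882 with *Klf3*, 0.798 with *Klf7*, 0.784 with *Klf6*, 0.724 with *Klf13*, 0.618 with *Klf9*, 0.130 with *Klf10*, 0.0470 with *Klf4*, -0.500 with *Klf11*, -0.505 with *Klf16* and -0.809 with *Klf2*. With the share as a covariate, an alternative chosen after seeing the data, the changes with the combination were -0.22, adjusted p = 0.0825 for *Klf3* and 0.49, adjusted p = 0.0916 for *Klf16*, neither called, while that of *Klf2* was -2.11, adjusted p = 1.43e-11 and that of *Klf4* was 3.32, adjusted p = 2.90e-08. In the same fit *Klf13* passed with IFN-γ (0.33, adjusted p = 0.0448) and *Klf6* passed for the interaction (0.49, adjusted p = 0.0323). In the IL-4 set library e stood apart, lowest for *Klf3*, *Klf4*, *Klf7*, *Klf9* and *Klf13*. The same library was highest of the set for *Klf2* (279.6 CPM) and *Klf16* (35.5 CPM), and highest of libraries d, e and f for *Klf11* (32.4 CPM).

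Markers of other cells moved with the groups too. All 6 B cell markers had more than 3 counts in some library, with *Ighm* the most abundant (mean 58.0 CPM and 31.8 CPM in the sets), and B cells express *Klf2* and *Klf3*. Their summed level was 215, 194 and 116 CPM in libraries a, b and c, 40.5, 44.2 and 76.0 CPM with *E. coli*, 99.6, 61.1 and 57.9 CPM with IFN-γ, 120.5, 133 and 127 CPM with the combination, 24.9, 23.6 and 43.2 CPM in libraries d, e and f and 64.0, 58.4 and 71.5 CPM with IL-4. Of the 5 tested in the Type 1 set 5 fell with *E. coli*, 4 fell with IFN-γ, and edgeR and DESeq2 called none with the combination (1 at an unadjusted p under 0.05). All 5 were higher with the combination than with *E. coli* and higher for the interaction (median 2.68 on the log2 scale), 3 were higher with the combination than with IFN-γ, and 1 was higher with IFN-γ than with *E. coli*. Of the 4 tested in the IL-4 set 3 rose, and in the model of 18 libraries the IL-4 response was above the responses to the combination, IFN-γ and *E. coli* for 3, 4 and 5 of 5 tested. Of 7 mast cell markers 6 had more than 3 counts in some library of each set (*Mcpt4* did not in the Type 1 set, *Fcer1a* in the IL-4 set), led by *Tpsb2* (mean 11.7 CPM and 4.53 CPM), and their sum was 10.7, 8.18 and 7.78 CPM in libraries a, b and c, 10.9, 7.97 and 35.3 CPM with *E. coli*, 32.8, 15.8 and 14.96 CPM with IFN-γ, 40.6, 82.2 and 72.8 CPM with the combination, 9.96, 6.77 and 7.33 CPM in libraries d, e and f and 17.6, 7.94 and 23.5 CPM with IL-4. Of 8 neutrophil markers 4 had more than 3 counts in the Type 1 set (not *Elane*, *Ltf*, *Mpo* or *Ngp*) and 8 in the IL-4 set, led by *S100a8* (mean 43.5 CPM) and *S100a9* (mean 6.51 CPM), with sums of 12.5, 12.6 and 19.6 CPM, 61.2, 45.8 and 128 CPM, 65.1, 58.0 and 70.9 CPM, 49.3, 66.4 and 100.4 CPM, 17.1, 18.8 and 19.0 CPM and 14.6, 17.0 and 24.8 CPM in the same order of groups. Of 7 mesothelial and endothelial markers 2 had more than 3 counts in the Type 1 set and 4 in the IL-4 set, led by *Pecam1* (mean 102 CPM and 117 CPM), which leukocytes also express, with *Msln*, *Wt1* and *Krt19* at or under 3 counts throughout and sums of 96.2, 83.0 and 88.8 CPM, 150.0, 155 and 161 CPM, 70.7, 45.3 and 73.5 CPM, 99.4, 82.2 and 132 CPM, 78.6, 96.1 and 87.7 CPM and 149.6, 149 and 149 CPM. Among 6 T cell markers *Cd3e*, *Cd3g*, *Cd4* and *Cd8a* never exceeded 3 counts, and the most abundant, *Cd3d*, averaged 4.28 CPM and 3.47 CPM, with sums of 11.1, 6.92 and 5.32 CPM, 6.08, 5.98 and 7.35 CPM, 5.56, 7.13 and 6.51 CPM, 7.98, 7.07 and 4.59 CPM, 5.53, 3.96 and 4.51 CPM and 4.73, 2.81 and 1.29 CPM. Tested with *E. coli*, IFN-γ and the combination were 2 mast cell markers, of which 0, 1 and 2 rose, 2 neutrophil markers, of which 1, 2 and 2 rose, and *Pecam1*, which rose with *E. coli* and IL-4 and fell with IFN-γ. Between the combination and *E. coli* 2 mast cell markers and 1 neutrophil marker were higher and *Pecam1* was lower, between the combination and IFN-γ 1 mast cell marker and *Pecam1* were higher, between IFN-γ and *E. coli* 1 neutrophil marker was higher and *Pecam1* was lower, and for the interaction 1 neutrophil marker was lower. The IL-4 response was lower than those to the combination, IFN-γ and *E. coli* for 1, 2 and 1 of 3 neutrophil markers, and that of *Pecam1* was higher than its response to IFN-γ. The part of other cells in the changes of the members was not tested.

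For 8 of the 10 members RefSeq gives a promoter (build GRCm38.p6), read here as the 250 bases before the start of the gene in RefSeq, 5′ to 3′ on the strand of the gene. RefSeq and GENCODE, from which the positions above come, place some starts differently, and the window reached 29 bases into the GENCODE gene for *Klf2*, 133 for *Klf3*, 7 for *Klf6* and 97 for *Klf11*, lay with all 250 bases inside it for *Klf7*, and did not enter it for *Klf4*, *Klf9* and *Klf13*. Of the members called in a test between stimuli or between responses, the windows that entered the GENCODE gene by no more than 29 bases are shown (a limit chosen with these values in view), those of *Klf2*, *Klf4*, *Klf6* and *Klf9*, with the letters that the family itself is known to bind. Capitals mark the GC box GGGCGG or the CACCC element on either strand. The stretch is chr8:72318812-72319061 (plus strand, GC 71.2%) for *Klf2*, chr4:55532476-55532725 (minus strand, GC 74.0%) for *Klf4*, chr13:5861239-5861488 (plus strand, GC 64.8%) for *Klf6* and chr19:23140976-23141225 (plus strand, GC 59.6%) for *Klf9*.
Klf2: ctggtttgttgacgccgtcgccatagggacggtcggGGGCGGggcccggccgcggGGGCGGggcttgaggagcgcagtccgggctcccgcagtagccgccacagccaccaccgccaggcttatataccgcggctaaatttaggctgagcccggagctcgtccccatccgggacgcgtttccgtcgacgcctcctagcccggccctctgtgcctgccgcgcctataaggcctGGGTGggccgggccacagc
Klf4: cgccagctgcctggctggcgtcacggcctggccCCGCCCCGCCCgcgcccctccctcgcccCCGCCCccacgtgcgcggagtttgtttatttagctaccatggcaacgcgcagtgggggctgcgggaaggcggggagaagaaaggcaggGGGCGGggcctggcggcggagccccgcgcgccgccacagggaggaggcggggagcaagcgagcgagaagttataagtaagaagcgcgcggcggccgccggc
Klf6: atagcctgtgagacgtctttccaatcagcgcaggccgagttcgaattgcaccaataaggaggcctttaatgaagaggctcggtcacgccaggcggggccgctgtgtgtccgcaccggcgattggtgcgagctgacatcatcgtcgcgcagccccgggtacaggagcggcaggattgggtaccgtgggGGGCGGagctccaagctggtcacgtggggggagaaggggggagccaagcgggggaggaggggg
Klf9: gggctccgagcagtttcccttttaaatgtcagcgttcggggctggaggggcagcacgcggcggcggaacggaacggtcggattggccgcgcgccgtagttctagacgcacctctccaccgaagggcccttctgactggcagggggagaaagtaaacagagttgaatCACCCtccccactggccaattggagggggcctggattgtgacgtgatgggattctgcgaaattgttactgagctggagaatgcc
Klf2 holds 2 GC boxes and 1 CACCC element, Klf4 holds 4 GC boxes and no CACCC element, Klf6 holds 1 GC box and no CACCC element, and Klf9 holds no GC box and 1 CACCC element. Of the windows not shown, *Klf3* holds 6 GC boxes and 5 CACCC elements, *Klf11* 4 and 0, *Klf13* 3 and 1, and *Klf7* 1 and 3.

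A GC box was found in 7 of 8 member promoters, all but that of *Klf9*, and in 32.7% of 32851 promoters of the same length, whose median GC content was 52.4%. A CACCC element was found in 5 of 8 (*Klf2*, *Klf3*, *Klf7*, *Klf9* and *Klf13*) and in 52% of all. Of the other motifs searched on both strands, CCAAT was in 4 of 8 and 33.8% of all, the core TGACG of the cAMP response element in 4 of 8 and 17.8%, and the E-box CACGTG in 3 of 8 (*Klf4*, *Klf6* and *Klf11*) and 6.02%. A MEF2 motif was in 1 of 8 and 2.92% of all, in *Klf2* as CTAAATTTAG from base -118, and the STAT motif TTCNNNGAA was in 1 of 8 and 7.02%, in *Klf9* as TTCTGCGAA from base -33. Matches that overlap are counted separately, as for a pair of GC boxes in *Klf4*, positions are counted back from the RefSeq start, GC content differs between the promoters, and a match is a description of the letters and not a site.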

How the data were processed

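Counts of each Ensembl gene in 18 libraries, which the authors deposited without normalization, are the values used here. The submitters' processing notes and the study's methods name CEL-Seq2 libraries, fastp 0.20.1, STAR 2.7.2a, TopHat2 2.1.0 and HTSeq 0.6.1 with GRCm38, without saying which tools made which libraries, whether molecular identifiers were collapsed or how the strand was used. No count in the 12 libraries with *E. coli*, IFN-γ, the combination or their controls (the Type 1 set) exceeded 4095, and 4096 identifiers of 6 bases exist, so high counts there may lie under a ceiling. The highest count was 4089 to 4095 in each of these libraries and 87377 to 191131 in those of the IL-4 set. The sets may thus count in different units, which also bears on differences between responses. For the same reason the total counts, floors and chi-squares of the sets do not show which set is more sensitive or varies more between replicates. In library a *Klf6*, *Klf7* and *Klf13* had 1938, 2049 and 1351 counts, where such a ceiling would lower them in part. Counts on genes were 1523808 to 6482289 per library. The share of reads on no gene was 18.9% to 37.6% in the 12 libraries and was left out of totals.

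R 4.3.3 was used with edgeR 4.0.16 and DESeq2 1.42.0. Low counts were filtered with filterByExpr and libraries scaled by TMM, both in edgeR, whose quasi-likelihood test gave the p-values, adjusted over all genes tested by Benjamini-Hochberg and called at an adjusted p under 0.05. There was 1 model of these 12 libraries, 1 of the 6 with IL-4 or unstimulated d to f and 1 of all 18 for differences between responses, with 9883, 10556 and 10671 genes tested. The steps were tested on simulated data. The members and lists were chosen with earlier results of these data known. Named genes are all 10 members, up to 3 called genes of each list and comparison with the largest change, list genes tied to a member, and for the 3 members of widest range the 3 genes of highest correlation. Alternatives were DESeq2, its size factors, other filters, a 2-fold threshold, each library left out, a replicate block, all 6 unstimulated libraries as 1 group, only the 6 compared libraries and, chosen after seeing the data, a correction for identifier collisions, the share of reads on no gene as a covariate and the 9 stimulated libraries alone.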

Additional observations from a re-analysis of the deposited data

Results flagged for a closer look

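For *Klf2* the change with IFN-γ and *E. coli* together differed from the sum of the changes with each alone, by -0.65 on the log2 scale (adjusted p = 0.0418, edgeR's quasi-likelihood test of the interaction, n = 12 libraries). The call ended in 8 of the 12 fits that left out 1 library (-0.67 to -0.58, adjusted p = 0.0647 to 0.117) and with counts corrected for identifier collisions (-0.64, adjusted p = 0.0538), in a range of 0.0195 to 0.117 for the adjusted p over all alternatives and -0.78 to -0.58 for the value with 1 library left out. Levels per library stand with the values of *Klf2* in the report.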

How the results depend on the processing

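No change of a member reversed under the alternatives where it was called. Counts of members called (of 10) that moved by more than 1.5 times are given with the count from the model as described in brackets. With DESeq2 the interaction had 2 (1). With at least 10 counts required in every library, IFN-γ had 1 (3) and the combination against *E. coli* 2 (4): *Klf4* was then not tested, and *Klf6* (adjusted p = 0.0523) and *Klf9* (adjusted p = 0.0578) lost their calls. With a 2-fold threshold *E. coli* had 0 (4), IFN-γ 1 (3), the combination 2 (7), the combination against *E. coli* 2 (4), IFN-γ against *E. coli* 1 (3), the interaction 0 (1), IL-4 1 (2), and the IL-4 response against those to the combination, IFN-γ and *E. coli* 4 (7), 1 (3) and 2 (5), since most called changes were under 2-fold. Without a filter IL-4 had 5 (2) and the IL-4 against the IFN-γ response 5 (3). With all 6 unstimulated libraries as 1 group *E. coli* had 2 (4), the combination 2 (7) and IL-4 4 (2). Over all genes the calls in that fit were 2164 (2986), 3816 (4844) and 1662 (1089), in the same order. With counts corrected for identifier collisions, chosen after seeing the data, the interaction had 0 (1). With the share of reads on no gene as a covariate, also chosen after seeing the data, IFN-γ against *E. coli* had 6 (3) and the interaction 2 (1). Where the construction does not show it, the cause was not tested. Leaving out 1 library at a time, the counts were 2 to 4 for *E. coli*, 4 to 7 for the combination, 0 to 2 for the interaction, 1 to 4 for IL-4, and 4 to 7 and 2 to 7 for the IL-4 response against those to the combination and *E. coli*.

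With the replicate number as a block, on the 9 stimulated libraries, 1, 4 and 3 members were called for the combination against IFN-γ, the combination against *E. coli* and IFN-γ against *E. coli*, as without it, and without the block the 9 libraries gave 1, 3 and 3. Over all genes the calls were 1430, 3447 and 2750 with the block, in the same order, and 1153, 3178 and 2475 for the 9 libraries without it. Pairing by number is not stated in the labels.

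Over all genes the 2-fold threshold took the calls from 2986 to 1023 with *E. coli*, 3120 to 1187 with IFN-γ, 4844 to 2210 with the combination, 1209 to 404 and 3240 to 1325 for the combination against IFN-γ and *E. coli*, 2525 to 1027 for IFN-γ against *E. coli*, 457 to 245 for the interaction, 1089 to 478 with IL-4, and 4184 to 2728, 2964 to 1789 and 2995 to 1787 for the IL-4 response against those to the combination, IFN-γ and *E. coli*. IL-4 had 1634 without a filter and 1662 with all 6 unstimulated libraries as 1 group, and the interaction had 691 with the covariate. The interaction had 448 with DESeq2 and 522 with counts corrected for identifier collisions. With at least 10 counts required in every library, IFN-γ had 2373 and the combination against *E. coli* 2636. The IL-4 against the IFN-γ response had 2732 without a filter, and IFN-γ against *E. coli* had 2738 with the covariate. Leaving out 1 library gave 266 to 562 for the interaction, 740 to 1234 for the combination against IFN-γ and 483 to 1394 for IL-4. The same fits gave 2160 to 3392 for *E. coli* and 4223 to 5001 for the combination. For the IL-4 response against those to the combination and *E. coli* they gave 3587 to 4248 and 2302 to 3226.

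The depth of 8 to 12 counts for *Klf4* without IFN-γ limits how precisely its change with *E. coli* is known. The sets differ in layout, depth and highest count as well as in stimulus, and most smaller calls ended in some fit with 1 library left out, at the values given with each member.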
